A study of Mus musculus with 4 samples.

Results

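The genes examined encoded the enzymes of drug and xenobiotic metabolism, and they were picked by a rule on their symbols that used no expression value. They were the cytochromes P450 of families Cyp1 to Cyp4, the UDP-glucuronosyltransferases Ugt1 to Ugt3, the sulfotransferases (Sult), the glutathione S-transferases of classes alpha, kappa, mu, omega, pi, theta and zeta (Gst), and the microsomal glutathione S-transferases (Mgst). Pseudogenes marked -ps were left out. This gave 148 of the 55385 genes in the count table, 147 of them protein-coding and 1 (Cyp4x1os) antisense to a P450. RNA had been sequenced from granulosa cells (GCs), the somatic cells around the oocyte, of Kunming mice aged 12 to 14 days. Preantral follicles were cultured for 6 days without (Control) or with (NT4) neurotrophin-4, a growth factor that signals through the TrkB receptor, and the granulosa cells were kept after the oocyte had been removed. The 2 Control and 2 NT4 libraries came from independent experiments by the study's account. The study also states that its culture groups were run in parallel, so libraries of the same number may share an experiment, but the labels do not say which do. No single mouse is tied to a library, so p-values measure the spread between such experiments. Both groups shared a medium with follicle-stimulating hormone, insulin, transferrin, fetuin and bovine albumin, and differed by NT-4 alone.

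P450 enzymes add or expose a reactive group on fatty acids, steroids, vitamins, retinoids and foreign compounds, with electrons from a reductase. Conjugating enzymes then attach glucuronic acid (Ugt), sulfate (Sult) or glutathione (Gst and Mgst), which usually makes the product easier to excrete. The liver is the organ best known for these enzymes, while steroid-producing tissues such as the ovary also use them to clear steroids and the electrophiles that oxidation of lipids produces. The aryl hydrocarbon receptor (Ahr) is a known activator of Cyp1 genes, and Nrf2 (Nfe2l2) of many glutathione genes.

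Of the 148 genes, 39 were expressed, which here means a mean of at least 1 CPM (counts scaled by the total of the library) over the 4 libraries. Another 30 were low, with a mean under 1 CPM but more than 12 counts in at least 1 library. The other 79 had at most 12 counts in every library, and 53 of these had 0 counts in all 4. The limit of 12 counts stands for the 3 read pairs that an observation of 0 allows. It rests on an estimate of about 4 counts for each read pair, inferred from the deposited values, in which 45.4% to 46.2% of the counts from 1 to 12 were 4, 8 or 12. It equals 0.152 to 0.242 CPM by library and covers counting error only. Totals were 49520092 to 78704020 counts per library. The expressed fraction differed strongly by family. Glutathione enzymes were mostly expressed, with 17 of 22 Gst genes and 3 of 3 Mgst genes. Only 14 of 81 Cyp, 3 of 21 Ugt and 2 of 21 Sult genes were.

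**Figure D1:**
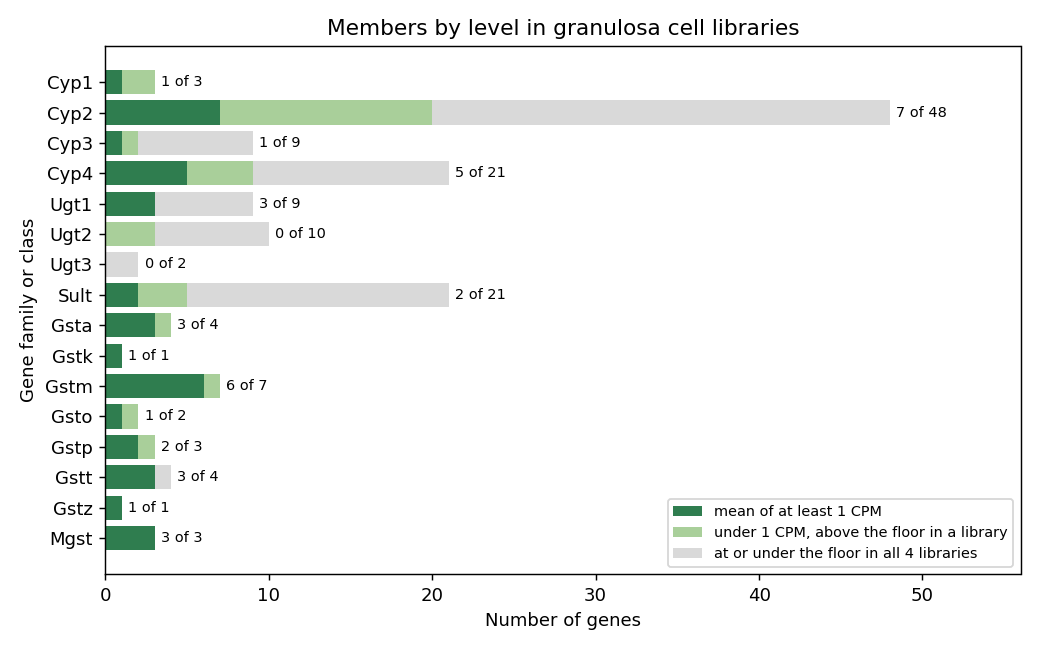
Number of genes (horizontal axis) in each family or class (vertical axis), split by level over the 4 libraries, with the number expressed of all members beside each bar. Expressed genes fill most of the short Gst and Mgst bars and a small part of the long Cyp2, Cyp4 and Sult bars.

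Levels of different genes were compared per length, as CPM per kilobase of exon (RPKM). On that scale the glutathione enzymes also made up most of the total. Gst genes held 75.0% to 78.2% of the summed RPKM of all members by library, the mu class alone 45.5% to 54.1%, and Mgst genes 14.8% to 16.5%. P450 genes held 6.38% to 7.73% and Ugt genes 0.395% to 0.570%. By mean RPKM, the order began with Gstm1 (226), Gstm2 (188), Gsta4 (126), Mgst1 (119), Gstp1 (57.7), Gstm5 (43.7), Cyp2s1 (33.8) and Mgst3 (32.6), and ended with Cyp2u1 (0.242). The ranges over the 4 libraries overlapped between most neighbours in this order. They did not overlap in 6 of 38 neighbour pairs, which included Gstm2 above Gsta4, Mgst1 above Gstp1, and Mgst3 above Gsto1. Gstm1 and Gstm2 could not be ordered, since the ratio of Gstm1 to Gstm2 was 1.08 and 0.941 in the Control libraries against 1.52 and 1.26 in the NT4 libraries.

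**Figure D2:**
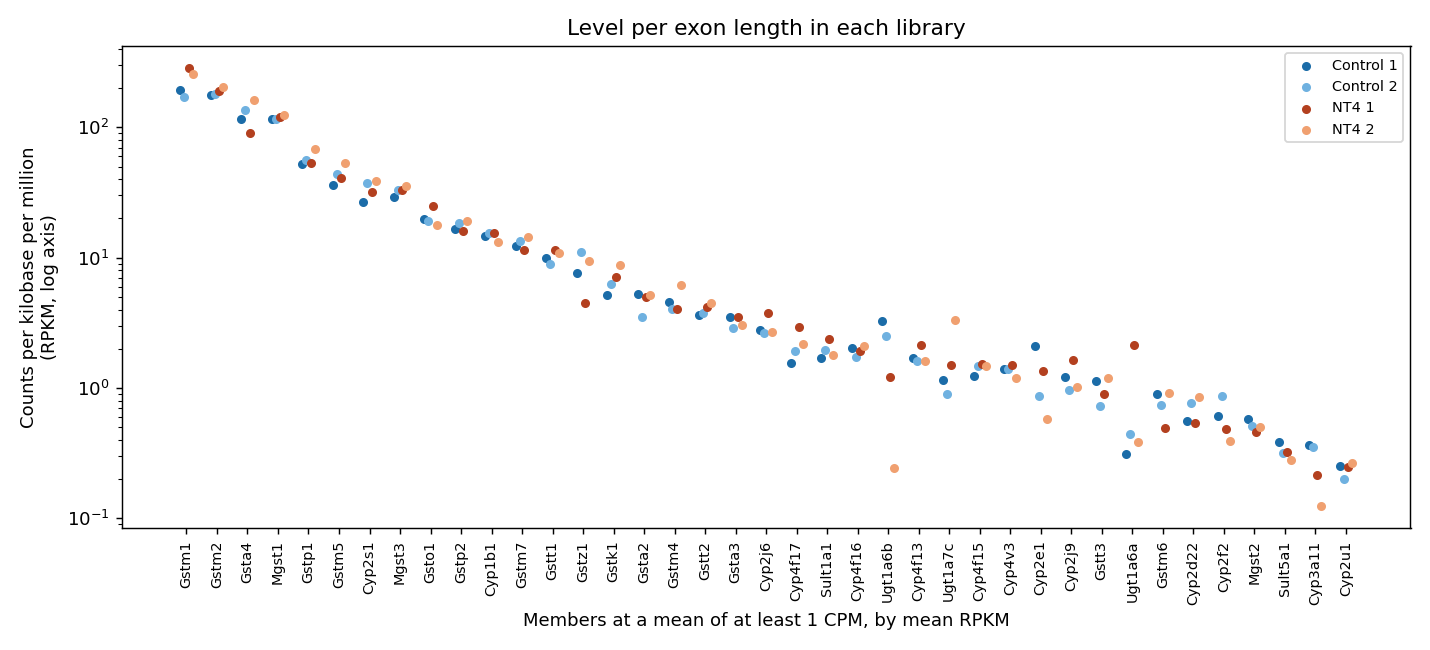
RPKM (vertical log axis) of the 39 expressed genes in each library (points, colour by library), ordered by mean RPKM. The upper part holds Gstm1, Gstm2, Gsta4 and Mgst1, and the libraries spread most for Ugt1a6a, Ugt1a6b and Ugt1a7c.

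In the rest of the text, 4 values after a gene are its CPM in Control 1, Control 2, NT4 1 and NT4 2, in that order. CPM is used to compare libraries for 1 gene.

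The mu class was the most abundant. Its enzymes conjugate glutathione to a wide range of electrophiles, and its genes lie in 1 cluster on chromosome 3, where 6 of 7 were expressed. Gstm1 (ENSMUSG00000058135, chr3:108012255-108017973) was at 284, 250.01, 421 and 378 CPM. Gstm2 (ENSMUSG00000040562, chr3:107981702-107986453) was at 299.7, 303, 316 and 342. Both were higher in each NT4 library than in each Control library, by a wide gap for Gstm1 and a small one for Gstm2. Gstm5 was at 46.4, 56.5, 52.6 and 67.8 CPM, Gstm7 at 19.5, 21.6, 18.3 and 23.2 and Gstm4 at 7.86, 6.94, 6.84 and 10.6, and NT4 2 was the highest library for these 3 genes while NT4 1 was below both Control libraries for Gstm7 and Gstm4. Gstm6 was at 1.78, 1.46, 0.984 and 1.82 CPM. Gstm3 was low, at 0.121, 0.841, 0.581 and 0.318 CPM.

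In the alpha class, Gsta4 was the leading gene. Its enzyme is known for conjugating hydroxynonenal, a toxic aldehyde from oxidised lipids. Gsta4 (ENSMUSG00000032348, chr9:78182774-78209349) was at 147, 172, 114 and 204 CPM, so the lowest and the highest value were both in NT4. Gsta3 was at 15.3, 12.5, 15.2 and 13.3 and Gsta2 at 6.24, 4.10, 5.91 and 6.06. Gsta1 had counts in NT4 1 alone (0, 0, 0.323 and 0 CPM). The Gsta2 value is uncertain, because 28.4% of the 100-base stretches of its transcripts occur identically in other genes, mainly Gsta1.

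Gstp1, the main pi class enzyme of many non-hepatic tissues, was at 80.9, 87.1, 83.1 and 106 CPM, and Gstp2 at 18.3, 20.6, 17.8 and 21.4. Identical 100-base stretches shared by the pair made up 41.6% of Gstp2 and 25.1% of Gstp1, so reads could have been divided between them. Gstp3 was low, at 0.606, 0.231, 0.0645 and 0.0508 CPM.

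The other Gst classes have more particular reactions. Gsto1, an omega class enzyme that reduces dehydroascorbate and mixed disulfides, was at 40.3, 38.8, 50.3 and 36.0 CPM. Gstz1, which also serves as the maleylacetoacetate isomerase of tyrosine breakdown, was at 39.0, 55.8, 23.0 and 48.3. Gstk1, found in mitochondria and peroxisomes, was at 7.65, 9.29, 10.4 and 13.0. Of these 3, Gstz1 was the most variable, with its lowest value in NT4 1, while Gstk1 was higher in both NT4 libraries. Gstt1, a theta class enzyme that acts on small halogenated compounds, was at 15.1, 13.7, 17.6 and 16.5 CPM, Gstt2 at 15.2, 15.7, 17.5 and 18.8 and Gstt3 at 4.36, 2.82, 3.45 and 4.57. Gstt1 and Gstt2 were higher in both NT4 libraries by small margins. Gsto2 was low, at 0.808, 0.692, 0.403 and 0.280 CPM, and Gstt4 had 0 counts in all 4 libraries. Some expressed genes overlap a gene on the opposite strand, and use of strand in counting is not given in the sources used here, so their values are uncertain to that extent. The overlap makes up 13.9% of the exon length of Gstm5 (with 4933431E20Rik), 9.14% of Gstz1 (with Pomt2), 5.27% of Cyp2s1 (with Gm26707) and 4.05% of Sult1a1 (with Sgf29). Cyp2u1 and Cyp2f2 overlap genes with 8 and 0 counts in all 4 libraries.

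All 3 membrane-bound enzymes were expressed. Mgst1, which combines transferase activity with reduction of lipid hydroperoxides, was at 233, 234, 239.8 and 250.5 CPM and was the most even of the abundant genes, with a coefficient of variation of 3.32% in RPKM. Mgst3 was at 32.1, 36.3, 35.9 and 38.9 CPM. Mgst2, which can make a leukotriene by adding glutathione, was at 2.16, 1.90, 1.69 and 1.86.

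Among the P450 genes, 2 stood well above the rest. Cyp2s1, an extrahepatic P450 known to metabolise retinoic acid and eicosanoids, was at 132, 186, 158 and 192 CPM (ENSMUSG00000040703, chr7:25802475-25816913). Cyp1b1, which hydroxylates oestradiol and polycyclic hydrocarbons, was at 85.8, 89.9, 90.3 and 77.6 CPM (ENSMUSG00000024087, chr17:79701537-79715061). Cyp2s1 was higher in replicate 2 of each group than in replicate 1, and Cyp1b1 differed little between libraries. The Cyp2s1 level per length was 1.83 to 2.93 times that of Cyp1b1 by library. The other Cyp1 genes were low: Cyp1a1, the classic target of Ahr, was at 0.687, 0.570, 1.05 and 0.343 CPM and Cyp1a2 at 0.242, 0.0542, 0.387 and 0.140. Cyp1b1 was thus present without comparable Cyp1a1 in all 4 libraries.

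The expressed Cyp2j, Cyp2u and Cyp4 genes, many of them known for roles in fatty acid metabolism, lay between 1 and 14 CPM. Cyp2j6 was at 10.04, 9.55, 13.7 and 9.68 CPM and Cyp2j9 at 4.04, 3.21, 5.45 and 3.41. These are epoxygenases of arachidonic acid, and both were highest in NT4 1. Cyp2u1, a hydroxylase of long-chain fatty acids, was at 1.33, 1.06, 1.29 and 1.38. In the Cyp4f group, whose enzymes hydroxylate fatty acids and leukotrienes at the omega end, 4 of 9 genes were expressed. Cyp4f13 was at 7.49, 7.20, 9.50 and 7.20 CPM, Cyp4f17 at 4.99, 6.13, 9.34 and 6.98, Cyp4f16 at 6.18, 5.30, 5.86 and 6.40 and Cyp4f15 at 2.81, 3.36, 3.50 and 3.34. Cyp4f17 alone of these 4 was higher in both NT4 libraries than in both Control libraries. Cyp4v3, another omega-hydroxylase, was at 5.31, 5.30, 5.70 and 4.54. All 8 Cyp4a genes, which are known targets of Ppara in liver, were low or at most at 12 counts.

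The Cyp2 and Cyp3 genes best known from liver, lung or kidney were scarce. None of the 15 Cyp2c, 5 Cyp2b or 4 Cyp2a genes had a mean of 1 CPM or more, and 10 Cyp2c, 5 Cyp2b and 2 Cyp2a genes had at most 12 counts in every library. Cyp2e1, the P450 that oxidises ethanol, was at 4.50, 1.88, 2.94 and 1.26 CPM. Cyp3a11, a leading drug-metabolising P450 of mouse liver, was at 1.88, 1.79, 1.10 and 0.635. Cyp2f2, known from lung airway cells, was at 1.23, 1.75, 0.984 and 0.800, and Cyp2d22 at 2.18, 2.98, 2.11 and 3.33. Cyp2e1 was over 2 times as high in replicate 1 as in replicate 2 of each group, while Cyp3a11 and Cyp2f2 were lower in both NT4 libraries. Cyp3a13 had at most 12 counts in every library (0.162, 0.0542, 0.177 and 0.0508 CPM). The low genes with the highest means were Cyp2c70 (1.64, 0.502, 0.871 and 0.508 CPM), Cyp2d26 (0.949, 0.407, 0.581 and 0.318), Cyp2r1, a vitamin D hydroxylase (0.343, 0.258, 0.823 and 0.470), and Cyp2d9 (0.464, 0.515, 0.419 and 0.381) among Cyp2, and Cyp4f39 (1.03, 0.597, 0.242 and 0.559) among Cyp4.

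Genes of hepatocytes were also present at low levels, and their values are given beside these P450s. Of 9 hepatocyte markers, 8 had a mean of at least 1 CPM. Alb, which encodes albumin, was at 42.4, 23.0, 28.0 and 32.2 CPM, Ttr at 7.47, 4.77, 2.36 and 2.92 and Serpina1a at 7.73, 5.68, 3.78 and 3.68. The 9 markers summed to 127, 75.2, 82.5 and 84.1 CPM, with the highest sum in Control 1. The 14 low Cyp2 and Cyp3 genes summed to 6.12, 3.26, 4.68 and 2.35 CPM, also highest in Control 1. Single genes were mixed, since 8 of these 14 were highest in Control 1, 3 in Control 2 (Cyp2d9, Cyp2a5 and Cyp2a12) and 3 in NT4 1 (Cyp2r1, Cyp2c67 and Cyp2c29). Among the markers, 8 of 9 were highest in Control 1. Hnf4a, a transcription factor of hepatocytes and the marker with a mean under 1 CPM (0.242, 0.705, 0.129 and 0.534), was highest in Control 2. All 9 hepatocyte markers had negative fold changes in NT4, with a median log2 value of −0.82 and an unadjusted p under 0.05 for Ttr and Serpina1a. These values rested on Control 1, without which 6 of the 9 were negative, with a median of −0.17, and Alb, Apoa1 and Cps1 were positive. With another library left out, 7 or 8 of the 9 were negative. The part of such RNA in the Cyp2 and Cyp3 values was not tested. In bulk RNA, fewer cells of a type and less RNA per cell cannot be told apart.

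**Figure D3:**
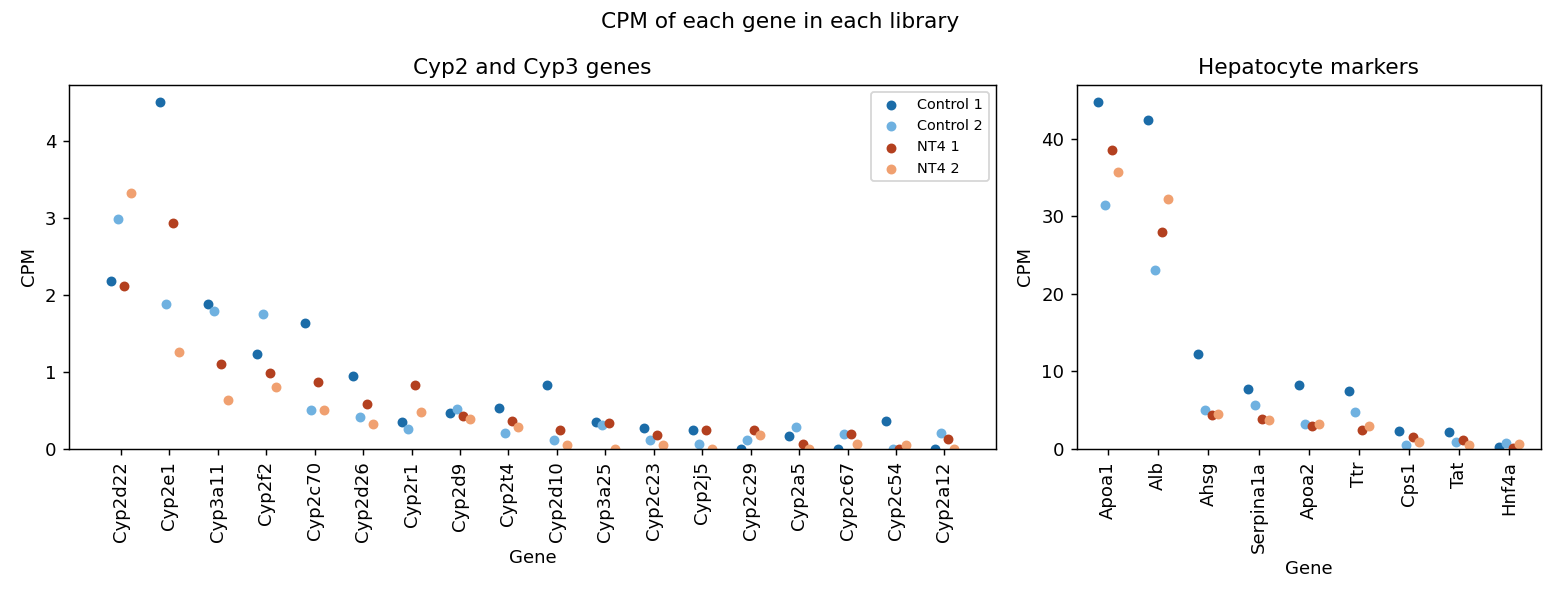
CPM (vertical axes, starting at 0) of 18 P450 genes (left, the 14 low Cyp2 and Cyp3 genes with Cyp2d22, Cyp2e1, Cyp2f2 and Cyp3a11) and all 9 hepatocyte markers (right) in each library (points, colour by library). Control 1 is the highest library for 10 of the 18 P450 genes and 8 of the 9 markers, and Cyp3a11 is lower in both NT4 libraries.

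Sulfotransferases and glucuronosyltransferases were sparse. Sult1a1, a phenol sulfotransferase, was at 2.54, 2.94, 3.57 and 2.71 CPM, and Sult5a1 at 1.72, 1.40, 1.42 and 1.25. These were the 2 expressed Sult genes of 21. Sult1e1, the oestrogen sulfotransferase, had 8 counts in NT4 2 and 0 in the other 3 libraries. Sult2b1, which sulfates cholesterol, was low at 0, 0.244, 0.274 and 0.610 CPM. No Ugt2 or Ugt3 gene reached 1 CPM. The 10 Ugt2 genes, several of which conjugate steroids, summed to 0.646, 0.990, 0.694 and 0.457 CPM. Ugt2b34 was at 0, 0.163, 0.129 and 0 CPM.

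The Ugt1a locus held the only expressed glucuronosyltransferases. In its 9 genes, a first exon of each gene's own is spliced to the same following exons, and 1311 exonic bases are held by all 9. The locus is on chromosome 1, plus strand, and the first shared exon is at chr1:88215044-88215175 (GRCm38). The sequences below are shown because they mark where the genes' own first exons end and the first shared exon begins, so reads wholly within the bases held by all 9 cannot tell the genes apart. Some annotated transcripts also have sequence of their own outside the first exon, as in Ugt1a7c, whose annotated end at 88220002 lies past that of Ugt1a6a at 88218997. The last 30 bases of the first exon are in lower case and the first 30 bases of the shared exon are in capitals, read 5′ to 3′ from the genome at the annotated exons. The first exons lie at chr1:88106862-88107799 (Ugt1a6b), chr1:88138378-88139331 (Ugt1a6a), chr1:88095064-88095978 (Ugt1a7c) and chr1:88211959-88212871 (Ugt1a1).
Ugt1a6b: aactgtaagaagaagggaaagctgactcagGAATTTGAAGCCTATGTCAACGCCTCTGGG
Ugt1a6a: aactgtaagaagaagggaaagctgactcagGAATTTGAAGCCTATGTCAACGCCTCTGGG
Ugt1a7c: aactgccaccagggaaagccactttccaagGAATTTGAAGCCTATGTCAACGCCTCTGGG
Ugt1a1: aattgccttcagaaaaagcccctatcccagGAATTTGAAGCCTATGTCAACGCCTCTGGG
Ugt1a6a and Ugt1a6b were identical in these 60 bases, and over their whole first exons 95.07% of 954 aligned positions were identical. Ugt1a7c differed from both at 17 of the last 30 bases of the first exon, with 56.87% identity to Ugt1a6a and 57.69% to Ugt1a6b over the first exon.

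Counts at this locus varied between libraries more than those of other expressed genes. Ugt1a6b (ENSMUSG00000090145, chr1:88103252-88219003) was at 7.73, 6.01, 2.89 and 0.584 CPM. Ugt1a7c (ENSMUSG00000090124, chr1:88095062-88220002) was at 4.87, 3.80, 6.39 and 14.1. Ugt1a6a (ENSMUSG00000054545, chr1:88134809-88218997) was at 1.35, 1.91, 9.15 and 1.66. Ugt1a6b was lower and Ugt1a7c higher in both NT4 libraries, while Ugt1a6a was high in NT4 1 alone. As a share of the locus, Ugt1a6b took 55.4%, 51.3%, 15.7% and 3.54%, Ugt1a7c 34.8%, 32.4%, 34.7% and 85.4%, and Ugt1a6a 9.68%, 16.3%, 49.6% and 10.1%. The share of Ugt1a7c in NT4 1 thus lay between those of the Control libraries, and it was higher in NT4 2 alone. The whole locus was at 13.97, 11.72, 18.44 and 16.52 CPM, a narrower spread than that of its 3 genes. Ugt1a1, the bilirubin-conjugating enzyme, had 4 counts in NT4 2 and 0 elsewhere. Of the 100-base stretches in each gene's transcripts, 70.9% in Ugt1a6b, 51.6% in Ugt1a7c and 50.4% in Ugt1a6a were shared with another gene.

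**Figure D4:**
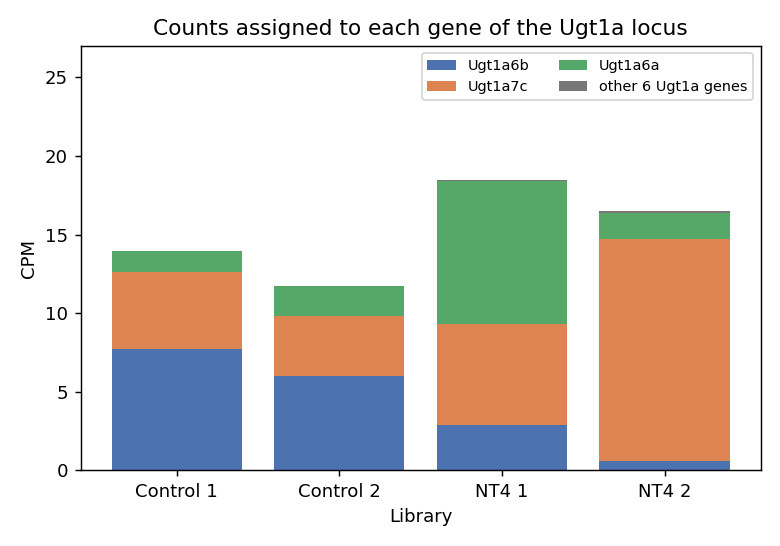
CPM (vertical axis, starting at 0) assigned to the genes of the Ugt1a locus in each library (stacked bars, colour by gene). The stacks reach 13.97, 11.72, 18.44 and 16.52 CPM, and their make-up differs between the 2 NT4 libraries.

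The next comparison was between NT4 and Control, which asked whether NT-4 in the medium altered the expression of these genes. Of the 148 genes, 66 passed the filter on low counts and entered edgeR's quasi-likelihood test, adjusted over 19259 genes. At a threshold of 0.05 on the adjusted p, 0 of the 66 were called, and 0% of all genes tested. DESeq2's Wald test also gave 0 of these genes, with 63 genes in all. At an unadjusted p under 0.05, 5 of 66 were found, against 1.99% of all genes tested. A criterion with the thresholds of the study's methods (fold change over 2 or below 0.5 and p below 0.05) was met, with the p taken here as unadjusted, by 4 of 66, against 1.08% of all genes tested. These 4 were Ugt1a7c, higher in NT4, and Ugt1a6b, Cyp3a11 and Gstp3, lower in NT4. Gstp3 had 30 and 17 counts in the Control libraries and 4 counts in each NT4 library, under the limit of 12, so no fold is given for it. It no longer met the criterion with the replicate number as a block or without Control 1, NT4 1 or NT4 2, and it did not pass the filter with counts divided by 4. Of the 4 genes, 2 are in the Ugt1a locus. With the counts of that locus summed neither met the criterion, and 2 genes did (Cyp3a11 and Gstp3).

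Gstm1 had the smallest p of all 66 genes. It was at 267 ± 24.0 CPM over the Control libraries and 399.8 ± 30.3 CPM over the NT4 libraries (mean ± SD, n = 2 each), with a log2 fold change of 0.60 (SE 0.12), unadjusted p = 0.00378 and adjusted p = 0.9999 in edgeR's test. Its fold change was 0.53 to 0.68 with any 1 library left out, and DESeq2's Wald test gave an adjusted p of 0.0777, while the other alternatives gave 0.746 to 0.99998. Theca and stroma markers also had positive fold changes. The 8 markers of that list were all expressed and summed to 969, 993, 1396 and 1192 CPM. All 8 had positive fold changes, with an unadjusted p under 0.05 for Acta2, Dcn, Tcf21, Col3a1 and Lum. Their part in the Gstm1 value was not tested.

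Among the other expressed genes with the smallest p, 3 met the criterion. Ugt1a7c was at 4.33 ± 0.756 CPM over the Control libraries and 10.2 ± 5.45 CPM over the NT4 libraries (mean ± SD, n = 2 each), with a log2 fold change of 1.27 (SE 0.42), unadjusted p = 0.0273, and of 0.56 without NT4 2, where it no longer met the criterion. Ugt1a6b was at 6.87 ± 1.22 CPM over the Control libraries and 1.74 ± 1.63 CPM over the NT4 libraries (mean ± SD, n = 2 each), with a log2 fold change of −1.98 (SE 0.71) and unadjusted p = 0.0363. It was −3.52 without NT4 1 and −1.25 without NT4 2. With the counts of the locus summed, the sum had a log2 fold change of 0.47 (unadjusted p of 0.0410, edgeR's test). That value is for the whole locus and gives no direction for Ugt1a6b alone. The fold of the sum was too small for the criterion, so neither Ugt1a7c nor Ugt1a6b was counted in that fit. Cyp3a11 was at 1.83 ± 0.0623 CPM over the Control libraries and 0.866 ± 0.327 CPM over the NT4 libraries (mean ± SD, n = 2 each), with a log2 fold change of −1.07 (SE 0.41) and unadjusted p = 0.0468. Dropping Control 1 or Control 2 hardly moved this fold change, which was then −1.05 or −1.09, but Cyp3a11 did not meet the criterion in either fit. Its fold change was −1.49 when NT4 1 was dropped. Dropping NT4 2 gave −0.74, a fold too small for the criterion. In DESeq2's Wald test Cyp3a11 no longer met the criterion, since its unadjusted p was 0.0672. Cyp4f17 was at 5.56 ± 0.807 CPM over the Control libraries and 8.16 ± 1.67 CPM over the NT4 libraries (mean ± SD, n = 2 each), with a log2 fold change of 0.57 (SE 0.24) and unadjusted p = 0.0636, which did not meet the criterion. The adjusted p in edgeR's test was 0.9999 for each of these genes.

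**Figure D5:**
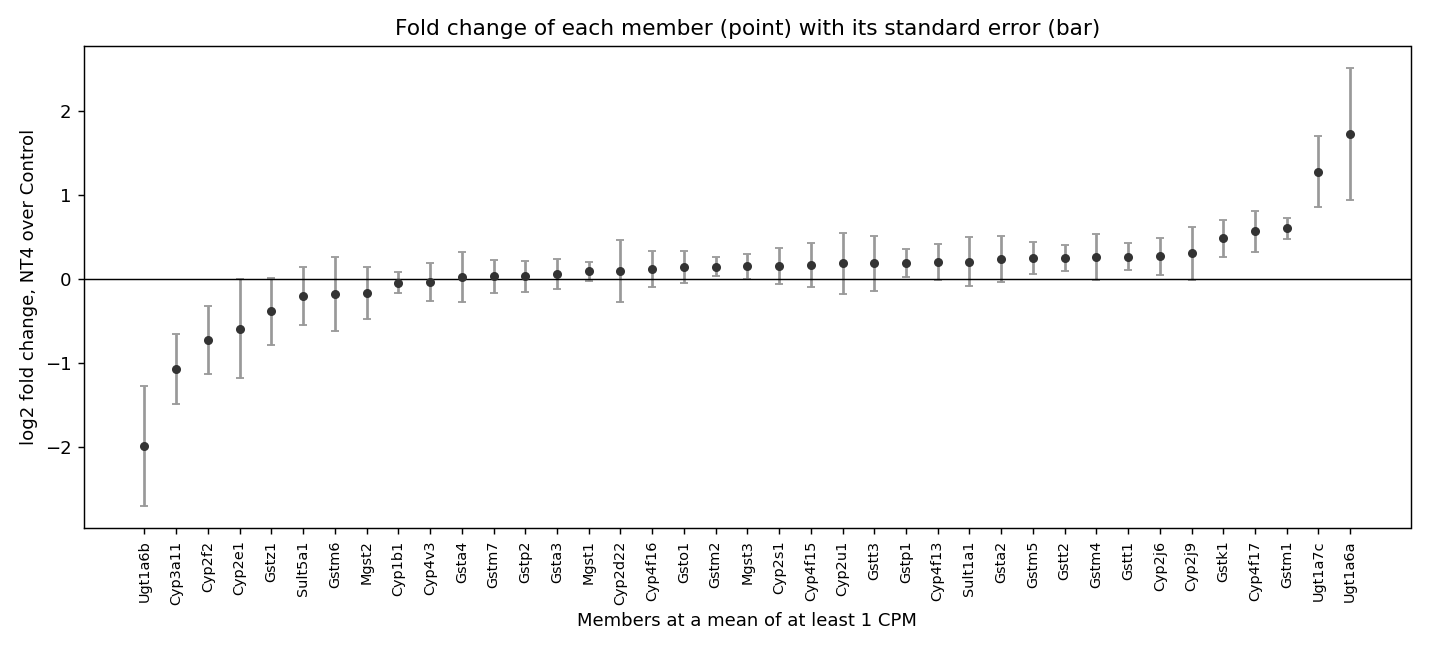
Log2 fold change of NT4 over Control (vertical axis) for the 39 expressed genes, as edgeR's estimate (points) with its standard error (bars). Most points lie within 2 SE of 0, and the bars are widest for Ugt1a6a and Ugt1a6b.

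Libraries of the groups did not overlap for 12 of the 39 expressed genes, against 24.7% of all genes at 1 CPM or more. In 8 of these NT4 was higher (Cyp4f17, Gstk1, Gstm1, Gstm2, Gstt1, Gstt2, Mgst1 and Ugt1a7c) and in 4 lower (Cyp2f2, Cyp3a11, Mgst2 and Ugt1a6b). Of all genes at that level, 11% were higher and 13.6% lower in this way. Of the expressed genes, 29 had a positive and 10 a negative fold change, where 52.0% of all genes at 1 CPM or more were positive. Without NT4 2, 23 were positive and 16 negative, or 59.0%, against 48.3% of all genes at that level. Of the 27 tested genes under 1 CPM, 10 were positive and 17 negative, which made 39 positive of 66, or 59.1%, against 51.0% of all genes tested. Without the filter the count was 49 of 95, or 51.6%, against 50.2%, and without NT4 1 it was 38 of 73, or 52.1%, against 48.5%. With counts divided by 4, 43 genes passed the filter. Of these, 30 were positive and 13 negative, or 69.8% positive, against 50.8% of all genes in that fit. The median log2 value over the 66 tested was 0.10, against 0.0045 over all genes tested. It was 0.011 without NT4 1, 0.039 without NT4 2, 0.029 without the filter and 0.145 with counts divided by 4. Of the 17 expressed Gst genes, 15 had a positive value, with a median of 0.19 and a range from −0.38 (Gstz1) to 0.60 (Gstm1). Without NT4 2, 9 of the 17 were positive, with a median of 0.033. The count was 12 without Control 1, 12 without Control 2 and 15 without NT4 1. Of the 14 expressed P450 genes, 9 had a positive value, with a median of 0.14, which was 0.011 without NT4 1 and 0.071 without NT4 2. Among abundant genes, log2 fold changes were 0.15 (SE 0.12) for Gstm2, 0.025 (SE 0.30) for Gsta4, 0.090 (SE 0.11) for Mgst1, 0.16 (SE 0.21) for Cyp2s1 and −0.046 (SE 0.12) for Cyp1b1. The sign for Gsta4, Cyp2s1 and Cyp1b1 turned when a library was left out.

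Some genes separated by replicate number rather than by group. Both replicate 2 libraries were above both replicate 1 libraries for 9 expressed genes, among them Cyp2s1, Gsta4, Gstm5, Gstp1 and Gstz1, and below them for 8. These 17 of 39 genes make 43.6%, against 52.1% of all genes at 1 CPM or more. The sum of the GC markers was also higher in replicate 2. All 10 were expressed, and they summed to 10569 and 9242 CPM in replicate 1 of Control and NT4 against 13130 and 14315 CPM in replicate 2. Of the 10, 7 were higher in both replicate 2 libraries, Amh (303, 151, 393 and 89.6 CPM) and Amhr2 (237, 217, 268 and 200.3 CPM) were lower in both, and Esr2 overlapped. Oocyte markers summed to 60.5 to 86.4 CPM and macrophage markers to 0.976 to 1.92 CPM, with Ptprc at 0 in 3 libraries. Endothelial markers summed to 18.6 to 27.6 CPM, nearly all of it Cdh5, and surface epithelium markers to 8.23 to 11.7 CPM, mostly Krt18, with Krt19 at 0. The part of these sources in the values was not tested.

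The genes that regulate, supply or follow these enzymes were also read from the same fit. Of 53 such genes, 50 were tested. By the same edgeR test 0 were called after adjustment, and 0 had an unadjusted p below 0.05. DESeq2's Wald test gave 0 and 1 of 52. Fold changes were positive for 23 and negative for 27. Among regulators, Ahr was at 24.5, 29.0, 23.3 and 25.1 CPM, its partner Arnt at 71.2, 72.05, 68.8 and 69.5 and Nfe2l2 at 124, 122, 122 and 117. The liver receptors Nr1i2 (0.303, 0.203, 0 and 0.152 CPM) and Nr1i3 (0.182, 0.149, 0.242 and 0.0889 CPM), which control Cyp2b and Cyp3a genes, were near the limit of detection. Por, the reductase that hands electrons to P450s, was at 77.5, 94.3, 89.1 and 94.5 CPM, and Gclc, which catalyses the first step of glutathione synthesis, at 139, 119, 140.2 and 103. Ugdh, which makes the glucuronic acid donor, was at 64.8, 64.8, 71.4 and 70.7 CPM, and Papss1, which makes the sulfate donor, at 101.2, 110.4, 95.2 and 118. Ephx2, a soluble epoxide hydrolase that acts on the products of Cyp2j enzymes, was at 464, 602, 374 and 662 CPM and was highest in replicate 2 of each group. Nqo1, a quinone reductase under Ahr and Nrf2, was at 4.18, 4.01, 4.32 and 3.57 CPM.

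Promoter sequences were examined for the core sites of Ahr (GCGTG) and of Nrf2 (the antioxidant response element, TGACNNNGC), on both strands. The windows held 250 bases before and 50 bases after each start site, from RefSeq on GRCm38.p6. Windows were found for 33 of the 39 expressed genes (41 windows). Cyp2d22, Cyp2u1, Cyp4f17, Gsta4, Gstt2 and Ugt1a6b had no entry. GCGTG occurred in 10 of 41 windows (24.39%), against 32.39% of all 32851 windows of this length, and TGACNNNGC in 5 of 41 (12.2%) against 12.39%. The shares were thus at or under those of all promoters. The windows of Gstm1 (chr3:108017924-108018223, minus strand), Cyp1b1 (chr17:79715012-79715311, minus strand) and Mgst1 (chr6:138140277-138140576, plus strand) are shown because they belong to 1 of the 2 most abundant mu class genes, the expressed Cyp1 gene and the most even abundant gene, each with 1 match. Gstm1 and Mgst1 each had 1 more window at another start site, not shown. In that of Gstm1 the same GCGTG lay at position −231, and that of Mgst1 held no match. Capitals mark GCGTG or its reverse complement in Gstm1 and Cyp1b1, at position −76 from the start site in both, and the antioxidant element in Mgst1, at position −56.
Gstm1: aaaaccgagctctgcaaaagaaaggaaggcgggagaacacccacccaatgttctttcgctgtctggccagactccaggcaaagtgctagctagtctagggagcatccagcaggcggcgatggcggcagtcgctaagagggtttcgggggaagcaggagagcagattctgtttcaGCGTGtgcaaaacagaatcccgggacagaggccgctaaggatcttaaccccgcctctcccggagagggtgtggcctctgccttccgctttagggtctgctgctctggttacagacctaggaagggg
Cyp1b1: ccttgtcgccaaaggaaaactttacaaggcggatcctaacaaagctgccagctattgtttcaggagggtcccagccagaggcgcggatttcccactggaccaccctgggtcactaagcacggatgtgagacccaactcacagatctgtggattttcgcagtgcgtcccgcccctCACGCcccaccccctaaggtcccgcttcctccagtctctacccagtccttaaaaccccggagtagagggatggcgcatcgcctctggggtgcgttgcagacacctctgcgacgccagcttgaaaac
Mgst1: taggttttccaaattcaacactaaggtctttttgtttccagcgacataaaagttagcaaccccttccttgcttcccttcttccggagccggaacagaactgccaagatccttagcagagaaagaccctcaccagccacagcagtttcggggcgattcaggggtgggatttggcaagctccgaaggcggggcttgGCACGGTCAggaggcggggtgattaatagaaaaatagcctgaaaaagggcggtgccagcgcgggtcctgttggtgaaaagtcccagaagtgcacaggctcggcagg
A match to these letters is a description of the window and was not tested as a binding site.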

How the data were processed

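RNA of 4 GC samples (2 Control, 2 NT4) was made into dUTP libraries and sequenced as 150 bp pairs. The authors removed reads with adaptor or poor bases by Cutadapt, aligned the rest by HISAT2 against Ensembl v99 (GRCm38) and assembled transcripts with StringTie. The deposited values are expected counts (estimated counts in whole numbers, not normalized). About 4 counts per read pair is an estimate from the low counts, not a value given by the sources. The step from StringTie to whole counts, and whether strand was used, are not given in the sources used here, so genes with shared exons are uncertain.

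Symbols were matched by Ensembl identifier for 55144 of 55385 genes. CPM used library totals, and RPKM used the union of exons in GENCODE M21. NT4 was compared with Control in R 4.3.3 with edgeR 4.0.16 (TMM, default filter, quasi-likelihood test, two-sided, Benjamini-Hochberg over all genes), with the group alone in the model. The SE of a log2 fold change was its size divided by the square root of the F statistic. Depth was 12380023 to 19676005 read pairs per library by that estimate. The procedure was tested on simulated counts with a single spread setting for all genes and no effect of replicate number. This checked the code and not how small a change these data could show. The 4 files of single libraries were identical to the table.

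Values in every library are given for each gene at a mean of at least 1 CPM. Statistics are given for genes of that level that met the criterion with the study's thresholds, on an unadjusted p, without overlap, for the 5 smallest p, and for genes fixed by name. The members, lists and rules were chosen with earlier results of these data known. Alternatives were DESeq2 1.42.0 size factors and Wald test, library totals, no filter, a replicate block, counts divided by 4, shared exons summed, other thresholds and leaving out each library. Protein sequences were not used here.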

Additional observations from a re-analysis of the deposited data

How the results depend on the processing

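Of these enzyme genes, 0 had an adjusted p under 0.05 under each of the 11 alternatives. Over all genes the count was 10 without a filter, 63 by DESeq2's Wald test, 12 without Control 1, 37 without Control 2 and 0 under the others. The count meeting the criterion on fold and unadjusted p was 4, and 2 with shared exons summed (Cyp3a11 and Gstp3). Without a filter it was 5, with Ugt1a6a added. By DESeq2's Wald test it was 4, with Ugt1a6a in place of Cyp3a11. The genes that met it also changed with a library left out. The number of expressed genes was 30 at an RPKM of at least 1 and 33 to 44 at 2 and 0.5 CPM. The median log2 fold change of the tested genes was 0.103. It was 0.029 without a filter, 0.030 by DESeq2's Wald test and 0.145 with counts divided by 4, where 43 genes were tested. With a library left out it was 0.011 to 0.109. With the replicate number as a block, 3 genes met the criterion, Gstm1 was at 0.60 with an adjusted p of 0.746, and Gsta4 turned to −0.035. Deviations of same-numbered libraries had a Pearson r of 0.14 and a Spearman rho of 0.26 over 19259 genes, and the labels state no pairing. Of 429 fold changes of expressed genes under alternatives, 402 kept their direction and 27 turned, 25 of them with a library left out. With shared exons summed, the value of the whole Ugt1a locus (0.47) stood in for each expressed Ugt1a gene. It was counted as turned against Ugt1a6b, though it is not an estimate for that gene alone. With a library left out, the log2 fold changes that turned ranged over −0.15 to 0.040 (Cyp1b1), −0.080 to 0.44 (Cyp2s1), −1.30 to 0.15 (Cyp2e1), −0.055 to 0.59 (Cyp2j9), −0.29 to 0.40 (Cyp2d22), −0.19 to 0.10 (Cyp4v3), −0.48 to 0.39 (Gsta4), −0.025 to 0.55 (Gsta2), −0.068 to 0.20 (Gsta3), −0.17 to 0.20 (Gstm7), −0.11 to 0.55 (Gstm4), −0.72 to 0.20 (Gstm6), −0.10 to 0.35 (Gsto1), −0.015 to 0.37 (Gstp1), −0.13 to 0.17 (Gstp2), −0.081 to 0.52 (Gstt3) and −1.05 to 0.058 (Gstz1). The cause was not tested. A count of 0 allows 0.152 to 0.242 CPM by library, and the smallest difference detectable with 2 libraries a group was not measured.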
